A study of Homo sapiens with 6 samples.

Results

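The 8 genes described here, measured in the human erythroleukemia line HEL, encode receptors and other surface proteins by which human mast cells are recognised. The members were chosen by gene name, as the stem cell factor receptor, the IL-33 receptor, the chains of the IgE receptor, a pair of Siglecs and ENPP3, with earlier results of these data in view, and 8 of 8 were found among the 31999 genes listed. RNA was taken from HEL cells that carried a lentiviral small hairpin RNA (shRNA) against TMIGD2 (shTMIGD2, 3 libraries) or a control hairpin (shCtrl, 3 libraries), both in RPMI medium with serum, and the poly(A) fraction was sequenced. Both groups are thus the same line with a stably expressed hairpin, and the labels do not say which TMIGD2 hairpin was used. The level used here is the authors' mean log2 CPM (the count of a gene scaled to a common library total) over all 6 libraries, so each value below is 1 mean over both hairpins, with no spread and no error. Levels in each library or each group, and the comparison between shTMIGD2 and shCtrl, were not analysed here.

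Mast cells are tissue cells of the innate immune system that develop from blood progenitors. KIT is the tyrosine kinase receptor for stem cell factor, on which mast cells depend for growth and survival. The high-affinity IgE receptor is built of an alpha chain that binds IgE (FCER1A), a beta chain that amplifies the signal (MS4A2) and a dimer of gamma chains that carries it into the cell (FCER1G), while ST2, the product of IL1RL1, binds the alarm cytokine IL-33 together with the shared partner chain IL1RAP. SIGLEC6 and SIGLEC8 are sialic acid binding receptors with inhibitory motifs, and ENPP3 (CD203c) is an ectoenzyme that cleaves extracellular nucleotides and serves as a basophil and mast cell marker.

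The start regions of the IgE receptor chains, of KIT and of IL1RL1 are shown first, because the chains and KIT are set against each other below and IL1RL1 has more than 1 window in the reference. Each is the window of RefSeq (GRCh38.p14) from 250 bases before to 50 after the start site, on the plus strand, 5′ to 3′, and capitals mark a GATA motif. The motif was searched on both strands as AGATAA or AGATAG or TGATAA or TGATAG, without regard to the neighbouring bases. FCER1A is at chr1:159302086-159302385, MS4A2 at chr11:60088414-60088713, FCER1G at chr1:161215045-161215344 and KIT at chr4:54657707-54658006. For IL1RL1 the distal window is chr2:102311313-102311612 and the proximal window chr2:102337007-102337306.
FCER1A: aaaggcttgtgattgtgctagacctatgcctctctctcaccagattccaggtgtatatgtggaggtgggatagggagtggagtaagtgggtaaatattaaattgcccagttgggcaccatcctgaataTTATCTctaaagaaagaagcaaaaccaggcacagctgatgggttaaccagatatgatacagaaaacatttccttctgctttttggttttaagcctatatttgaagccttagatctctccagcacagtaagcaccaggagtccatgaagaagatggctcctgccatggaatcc
MS4A2: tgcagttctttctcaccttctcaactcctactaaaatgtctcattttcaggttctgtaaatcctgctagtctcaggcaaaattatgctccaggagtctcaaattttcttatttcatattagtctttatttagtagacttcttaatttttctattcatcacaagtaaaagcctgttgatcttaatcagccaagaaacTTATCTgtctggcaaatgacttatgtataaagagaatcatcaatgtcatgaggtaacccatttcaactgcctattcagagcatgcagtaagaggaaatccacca
FCER1G: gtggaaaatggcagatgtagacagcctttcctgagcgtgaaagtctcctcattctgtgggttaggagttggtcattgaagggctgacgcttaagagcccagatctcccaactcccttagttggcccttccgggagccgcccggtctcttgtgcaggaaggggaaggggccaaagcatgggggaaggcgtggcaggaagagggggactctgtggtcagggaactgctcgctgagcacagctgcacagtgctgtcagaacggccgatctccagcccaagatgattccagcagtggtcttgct
KIT: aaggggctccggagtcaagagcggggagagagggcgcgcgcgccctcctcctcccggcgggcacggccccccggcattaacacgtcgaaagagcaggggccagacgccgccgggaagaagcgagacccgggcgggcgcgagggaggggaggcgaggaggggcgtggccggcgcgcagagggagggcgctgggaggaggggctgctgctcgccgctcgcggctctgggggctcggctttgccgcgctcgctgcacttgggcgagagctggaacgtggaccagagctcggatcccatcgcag
IL1RL1 distal: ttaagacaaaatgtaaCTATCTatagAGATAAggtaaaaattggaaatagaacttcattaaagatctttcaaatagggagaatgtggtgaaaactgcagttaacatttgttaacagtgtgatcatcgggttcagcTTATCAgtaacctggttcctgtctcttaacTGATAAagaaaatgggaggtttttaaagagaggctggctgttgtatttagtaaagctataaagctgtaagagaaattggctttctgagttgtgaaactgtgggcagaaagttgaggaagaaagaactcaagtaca
IL1RL1 proximal: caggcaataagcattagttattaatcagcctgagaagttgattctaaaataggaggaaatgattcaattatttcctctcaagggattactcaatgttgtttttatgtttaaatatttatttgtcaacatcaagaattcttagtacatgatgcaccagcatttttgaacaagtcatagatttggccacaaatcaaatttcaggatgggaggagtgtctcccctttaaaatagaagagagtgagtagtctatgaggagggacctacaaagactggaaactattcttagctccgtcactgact

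A GATA motif was present in 3 of the 9 windows of these 8 genes, against 24.97% of the 35116 RefSeq windows of the same length. The distal IL1RL1 window held 4 of them, beginning at positions -234, -224, -115 and -85 from the start site. FCER1A held 1 at position -122 and MS4A2 held 1 at position -54, both on the minus strand. In the windows of FCER1G, KIT, SIGLEC6, SIGLEC8 and ENPP3, and in the proximal window of IL1RL1, these letters were not found. The RUNX motif TGTGGT stood in the windows of FCER1G, at position -42, and of IL1RL1 (distal), at position -168, against 13.07% of all windows. The letters TATAAA stood at position -29 in MS4A2 and in the distal IL1RL1 window, against 11.53% of all windows, and the E-box CANNTG, which is its own reverse complement in form, in 8 of 9 windows, against 68.7%. Such matches describe the sequence and do not show that a factor was bound.

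The windows also differed in base composition. KIT had 74.3% G and C and 38 CpG dinucleotides, more CpG than 90.1% of all windows. FCER1A and MS4A2 had 0 CpG, the distal and the proximal IL1RL1 windows 1 each and ENPP3 2, while the median window of the reference had 14. SIGLEC6 had 13, FCER1G 9 and SIGLEC8 5. FCER1A and KIT, the members with the highest and the second highest count level, therefore lay near opposite ends of this range.

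FCER1A, the IgE-binding chain, had the highest level of the 8 genes. Its mean log2 CPM was 8.75, which is 431.2 CPM and ranks it 333 from the top, above 99.0% of the 31999 genes. KIT followed with a mean log2 CPM of 7.82, or 225.5 CPM, above 97.4% of the genes. FCER1A and KIT together made up most of the summed count level of the 8 receptors, with 58.3% and 30.5% of it.

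The next 4 genes were close to each other in count level, before transcript length is taken into account. Per kilobase, as given below, FCER1G stood 20.6 times as high as MS4A2, and 9.44 times per kilobase of coding sequence. FCER1G had a mean log2 CPM of 5.06 (33.3 CPM), IL1RL1 one of 4.43 (21.5 CPM), SIGLEC6 one of 3.89 (14.9 CPM) and MS4A2 one of 3.32 (10.0 CPM). Neighbours in this order were 0.63, 0.53 and 0.57 apart on the log2 scale, and with no spread between libraries it cannot be said whether such steps exceed the replicate error. SIGLEC8, at a mean log2 CPM of 0.91 (1.87 CPM), and ENPP3, at 0.11 (1.08 CPM), were lowest. The step from MS4A2 down to SIGLEC8 was 2.42 and that from KIT down to FCER1G was 2.76, the widest in the order.

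**Figure D1:**
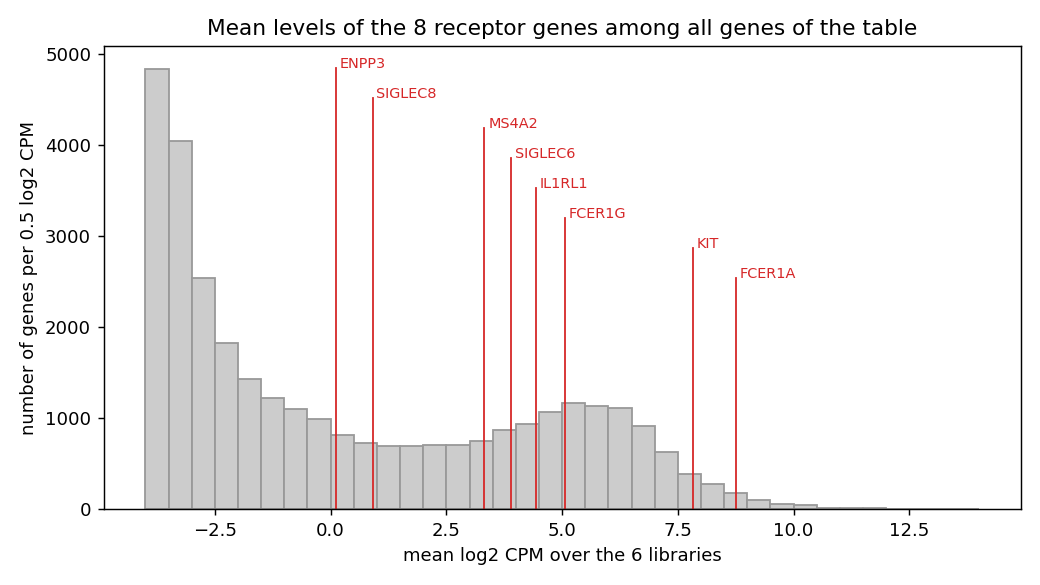
Distribution of the mean log2 CPM (x axis) of all 31999 genes (grey bars, number of genes per 0.5 log2 CPM), with a red line at each of the 8 receptor genes. FCER1A at 8.75 and KIT at 7.82 lie in the upper tail, and ENPP3 at 0.11 lies in the low stretch between the bulk of barely counted genes and that of expressed genes.

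All 8 genes reached at least 1 CPM, a level that 43.8% of the genes listed reached. All 8 also lay above the median of the table, which was a mean log2 CPM of -0.97. That median is low because the table lists many genes with almost no counts: 8.13% of the genes lay within 0.1 of its lowest value, -3.76. Among the 16341 genes that GENCODE 44 calls protein coding the median was 3.64, and 5 of the 8 receptors lay above it, namely FCER1A, KIT, FCER1G, IL1RL1 and SIGLEC6. MS4A2 ranked above 47.4% of protein-coding genes, SIGLEC8 above 34.5% and ENPP3 above 31.3%. ENPP3, at 1.08 CPM, passed 1 CPM narrowly and yet stood above only 31.3% of protein-coding genes. Reaching 1 CPM was thus commoner among protein-coding genes, to which all 8 receptors belong, than the 43.8% over all genes listed. The counts at 1 CPM given below for other lists cover only genes with a row and are to be read beside that share.

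Levels of different genes can be compared only per length, since a long transcript gives more fragments. Per kilobase of the canonical GENCODE 44 transcript, FCER1A (1073 bases) stood at 401.9 CPM per kb, FCER1G (590 bases) at 56.5 and KIT (5147 bases) at 43.8. The short FCER1G transcript and the long KIT transcript thus changed places. IL1RL1 (1997 bases) stood at 10.8 CPM per kb, SIGLEC6 (3647 bases) at 4.07, MS4A2 (3648 bases) at 2.74, SIGLEC8 (2949 bases) at 0.635 and ENPP3 (3165 bases) at 0.34. On this scale FCER1A alone made up 77.2% of the sum over the 8 genes.

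The chains of the IgE receptor were far from equal at the RNA level. Per kilobase of canonical transcript, FCER1A stood 7.11 times as high as FCER1G and 146.4 times as high as MS4A2. The latter ratio depends on the length used: most of the canonical MS4A2 transcript is untranslated, with a coding length of 732 bases. Per kilobase of coding sequence FCER1A stood 40.9 times as high as MS4A2 and 4.33 times as high as FCER1G. MS4A2 was the lowest of the 3 chains under each length, and FCER1A the highest.

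**Figure D2:**
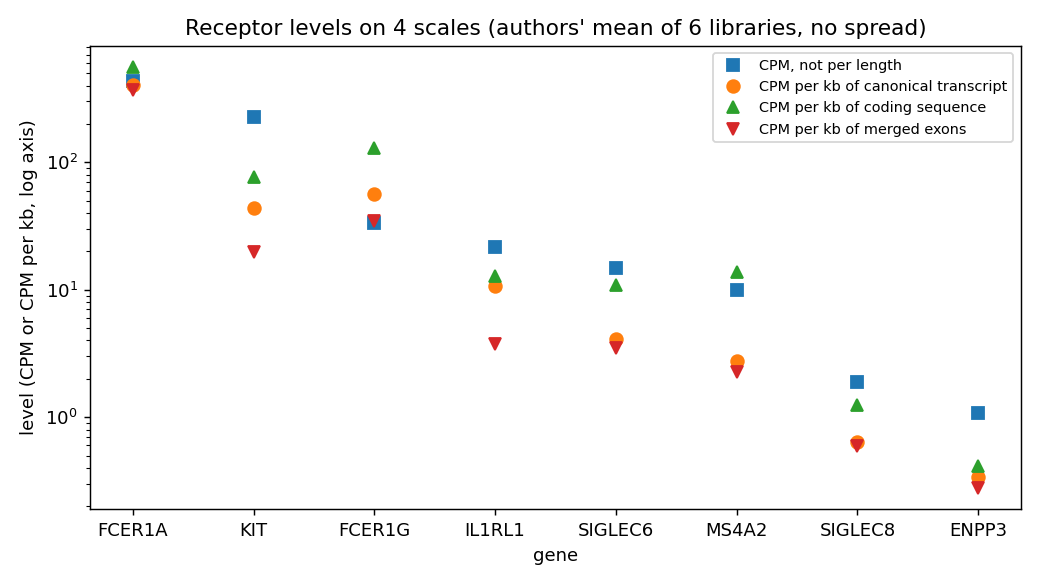
Level of each receptor gene (log axis) as CPM (squares) and as CPM per kb of the canonical transcript (circles), of the coding sequence (upward triangles) and of the merged exons (downward triangles). Each point is the authors' mean over 6 libraries. FCER1A is highest and ENPP3 lowest on every scale, while KIT (225.5 CPM, 43.8 CPM per kb) and FCER1G (33.3 CPM, 56.5 CPM per kb) change places.

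KIT was set beside the other class III receptor tyrosine kinases and their ligands. Of the 6 genes of that list with a row in the table, 3 reached 1 CPM. KIT stood 84.5 times as high per kilobase as PDGFRB, at 0.518 CPM per kb, and 140.1 times as high as CSF1R, at 0.313. FLT3, the receptor of early blood progenitors, had a mean log2 CPM of -2.98. KITLG, which encodes stem cell factor itself, had a mean log2 CPM of -3.76, and no gene in the table lay lower. CSF1, the ligand of CSF1R, was by contrast at 6.32 (80.0 CPM), and FLT3LG was at -1.99.

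KIT carries 11 protein-coding transcripts in GENCODE 44 (ENSG00000157404.17, plus strand of chromosome 4, 54657267 to 54740783), which the level per gene does not separate. The merged exons of all KIT transcripts, coding or not, span 11327 bases, so that per kilobase of merged exons KIT stood at 19.9 CPM per kb. No other protein-coding gene starts within 250 kb of its canonical start site.

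IL1RL1 (ENSG00000115602.17, plus strand of chromosome 2, 102311502 to 102352037) was the most abundant measured gene of its receptor family. In background knowledge, the gene gives a membrane receptor, ST2L, and a soluble decoy, and its distal start site is used mainly in blood cells. The level per gene counts both forms and both start sites. Which form was made, and which of the start sites shown above was in use, could not be read from it. IL1RL1 stood 5.48 times as high per kilobase as its partner IL1RAP (1.97 CPM per kb, mean log2 CPM 3.22), and 2.36 times as high per kilobase of coding sequence. IL18R1, the IL-18 receptor chain whose gene starts 44.2 kb downstream, had a mean log2 CPM of 3.35, and 95 exon bases of IL1RL1 overlap it on the same strand, 1.65% of the merged exons of IL1RL1. The interleukin 1 receptor IL1R1 was at -0.78, IL18RAP at -0.74, the decoy IL1R2 at -2.99 and IL1RAPL1 at -2.66.

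All 7 genes with a row on the list of the partner chain and adaptors of ST2 reached 1 CPM, with a median log2 CPM of 4.41. The kinase IRAK1 was highest at 7.58, followed by the adaptor MYD88 at 5.29 and the kinase IRAK4 at 5.11. Per kilobase of canonical transcript, IRAK1 (53.3 CPM per kb) and MYD88 (14.6) stood above IL1RL1 (10.8), while IRAK4 (8.08), the inhibitory receptor SIGIRR (7.21), TOLLIP (5.86), IL1RAP (1.97) and the ubiquitin ligase TRAF6 (1.58) stood below it. IL33 itself had no row in the table and was not analysed.

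Among the 11 other Fc receptor genes, 3 reached 1 CPM. They were FCGRT, the neonatal Fc receptor (mean log2 CPM 6.13), FCGR2A, an activating IgG receptor (6.09), and the inhibitory FCGR2B (1.49). FCER1A stood 15.7 times as high as FCGR2A per kilobase of canonical transcript and 7.83 times per kilobase of coding sequence. FCER1G, whose gamma chain also serves other Fc receptors, stood at 56.5 CPM per kb against 46.4 for FCGRT and 25.7 for FCGR2A. The other receptors known to pair with gamma or zeta chains were low, with FCGR1A at a mean log2 CPM of -1.93, FCGR3A at -1.99 and FCAR at -3.76. FCER2, the low-affinity IgE receptor of B cells, was at -3.66, and the zeta chain gene CD247 at -3.48. FCGR3A and FCGR3B are near-identical copies, as are parts of other FCGR genes, so that their single values are uncertain.

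MS4A2 lies in a cluster of related genes on chromosome 11 (ENSG00000149534.9, plus strand, 60088261 to 60098467). Its relative MS4A3, known from granulocyte progenitors and basophils, has its start site at -32.0 kb from that of MS4A2 and stood at a mean log2 CPM of 8.35. It stood 73.6 times as high as MS4A2 per kilobase of canonical transcript and 37.2 times per kilobase of coding sequence. MS4A4A had a mean log2 CPM of 2.59 and MS4A6A one of 1.78. Per kilobase of canonical transcript MS4A4A (3.97 CPM per kb) stood above MS4A2 (2.74), and MS4A6A (2.64) stood just below MS4A2. Of the 6 further MS4A genes with a row, 3 reached 1 CPM, and MS4A15 (-1.79), MS4A14 (-3.11) and MS4A8 (-3.48) did not.

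SIGLEC6 and SIGLEC8 lie 73.2 kb apart on the minus strand of chromosome 19, in the Siglec cluster. SIGLEC6 (ENSG00000105492.16, 51517819 to 51531856) stood 6.41 times as high per kilobase as SIGLEC8 (ENSG00000105366.15, 51450847 to 51458456). Of the 13 other Siglec genes, 6 reached 1 CPM. CD33, a myeloid surface antigen of the same family, was highest at a mean log2 CPM of 6.50, 15.2 times SIGLEC6 per kilobase of canonical transcript and 7.61 times per kilobase of coding sequence. SIGLEC12, which starts between the pair, was at 3.91, and SIGLEC10 at 2.69. SIGLEC6 stood at 0.616 times SIGLEC12 per kilobase of canonical transcript but at 1.30 times per kilobase of coding sequence, so the order of this pair depends on the length used. SIGLEC16 (0.90), SIGLEC14 (0.66) and SIGLEC11 (0.12) lay near SIGLEC8. CD22, the B cell Siglec, was at -3.40, SIGLEC1 at -3.18, SIGLEC7 at -2.53 and SIGLEC9 at -3.25. Siglec genes share stretches of sequence, and an antisense long noncoding RNA overlaps 9.93% of the merged exons of SIGLEC6, while the strand setting of the counting is not given in the sources used here, so these values carry that uncertainty.

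ENPP3 (ENSG00000154269.15, plus strand of chromosome 6, 131628442 to 131747418) was the lowest of the 8 receptors on each scale. In its own family it came after ENPP4 (mean log2 CPM 4.60), with 15.3 times its level per kilobase of canonical transcript and 43.4 times per kilobase of coding sequence, and ENPP5 (1.42), with 2.05 and 4.56 times. ENPP2, the gene of autotaxin, was at -2.87, and ENPP1 and ENPP6 were both at -3.25. FCER1A stood 1180 times as high per kilobase as ENPP3, which gives the full range within these receptors.

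**Figure D3:**
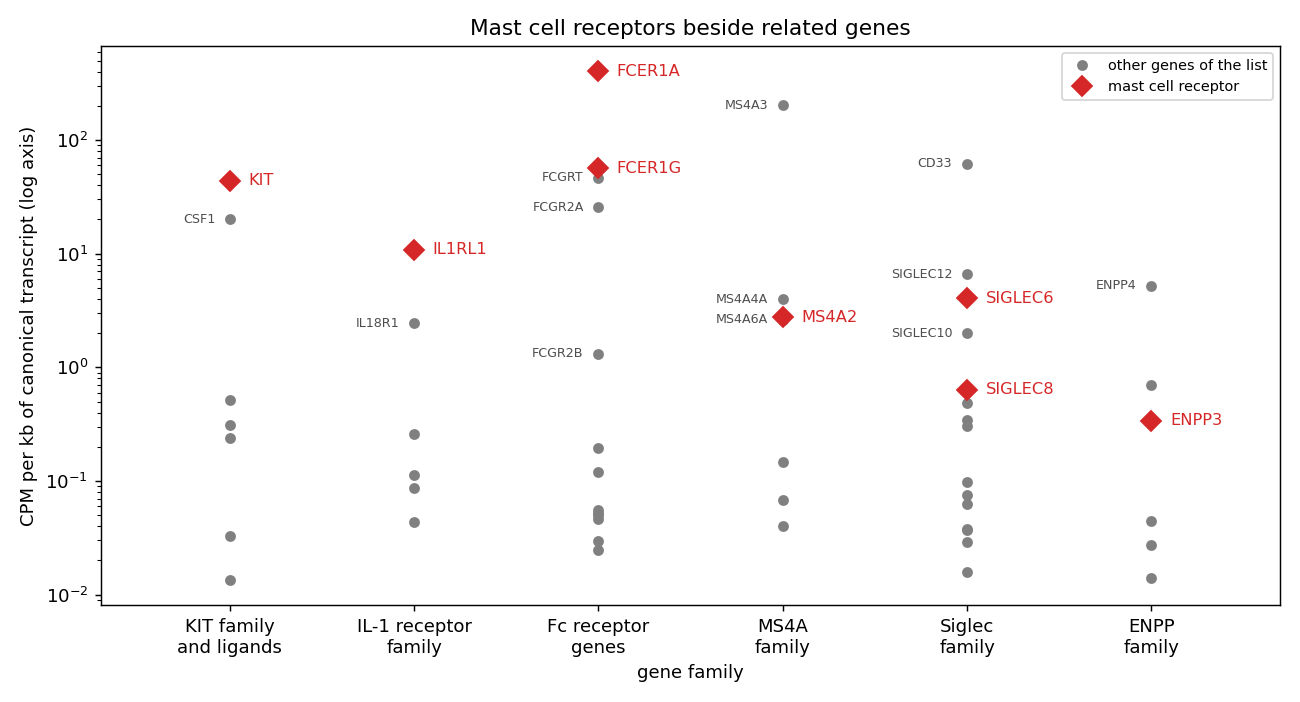
CPM per kb of the canonical transcript (log axis) of the receptor genes (red diamonds) and of related genes (grey circles, named above 1 CPM per kb), by family. On this scale KIT (43.8), IL1RL1 (10.8) and FCER1A (401.9) lie above all their measured relatives, while MS4A2, SIGLEC6, SIGLEC8 and ENPP3 lie below MS4A3, CD33 and ENPP4.

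Position on the chromosome was looked at next, using protein-coding genes whose canonical start site lies within 250 kb of that of a member. This window was set after the values had been seen. Near FCER1A (ENSG00000179639.11, plus strand of chromosome 1, 159289714 to 159308224), 5 of the 7 neighbours had a row and 0 of them lay above FCER1A. The highest were ACKR1, the Duffy blood group antigen (mean log2 CPM 4.11), and the DNA sensor gene AIM2 (3.11), while the olfactory receptor gene OR10J3, whose start lies 12.3 kb downstream, was at -3.05. FCER1G (ENSG00000158869.11, plus strand of chromosome 1, 161215234 to 161220699) lies among broadly expressed genes, and 9 of 21 measured neighbours had a higher mean log2 CPM. The median of the measured neighbours was 4.79 for FCER1G, against -0.54 for FCER1A, -0.74 for IL1RL1, -3.05 for MS4A2, 0.35 for SIGLEC6, 1.20 for SIGLEC8 and -3.18 for ENPP3. ENPP3 lies between ENPP1 (-3.25) and ARG1 (-3.18), and only MED23, a subunit of the Mediator complex, exceeded it there, at 5.29.

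**Figure D4:**
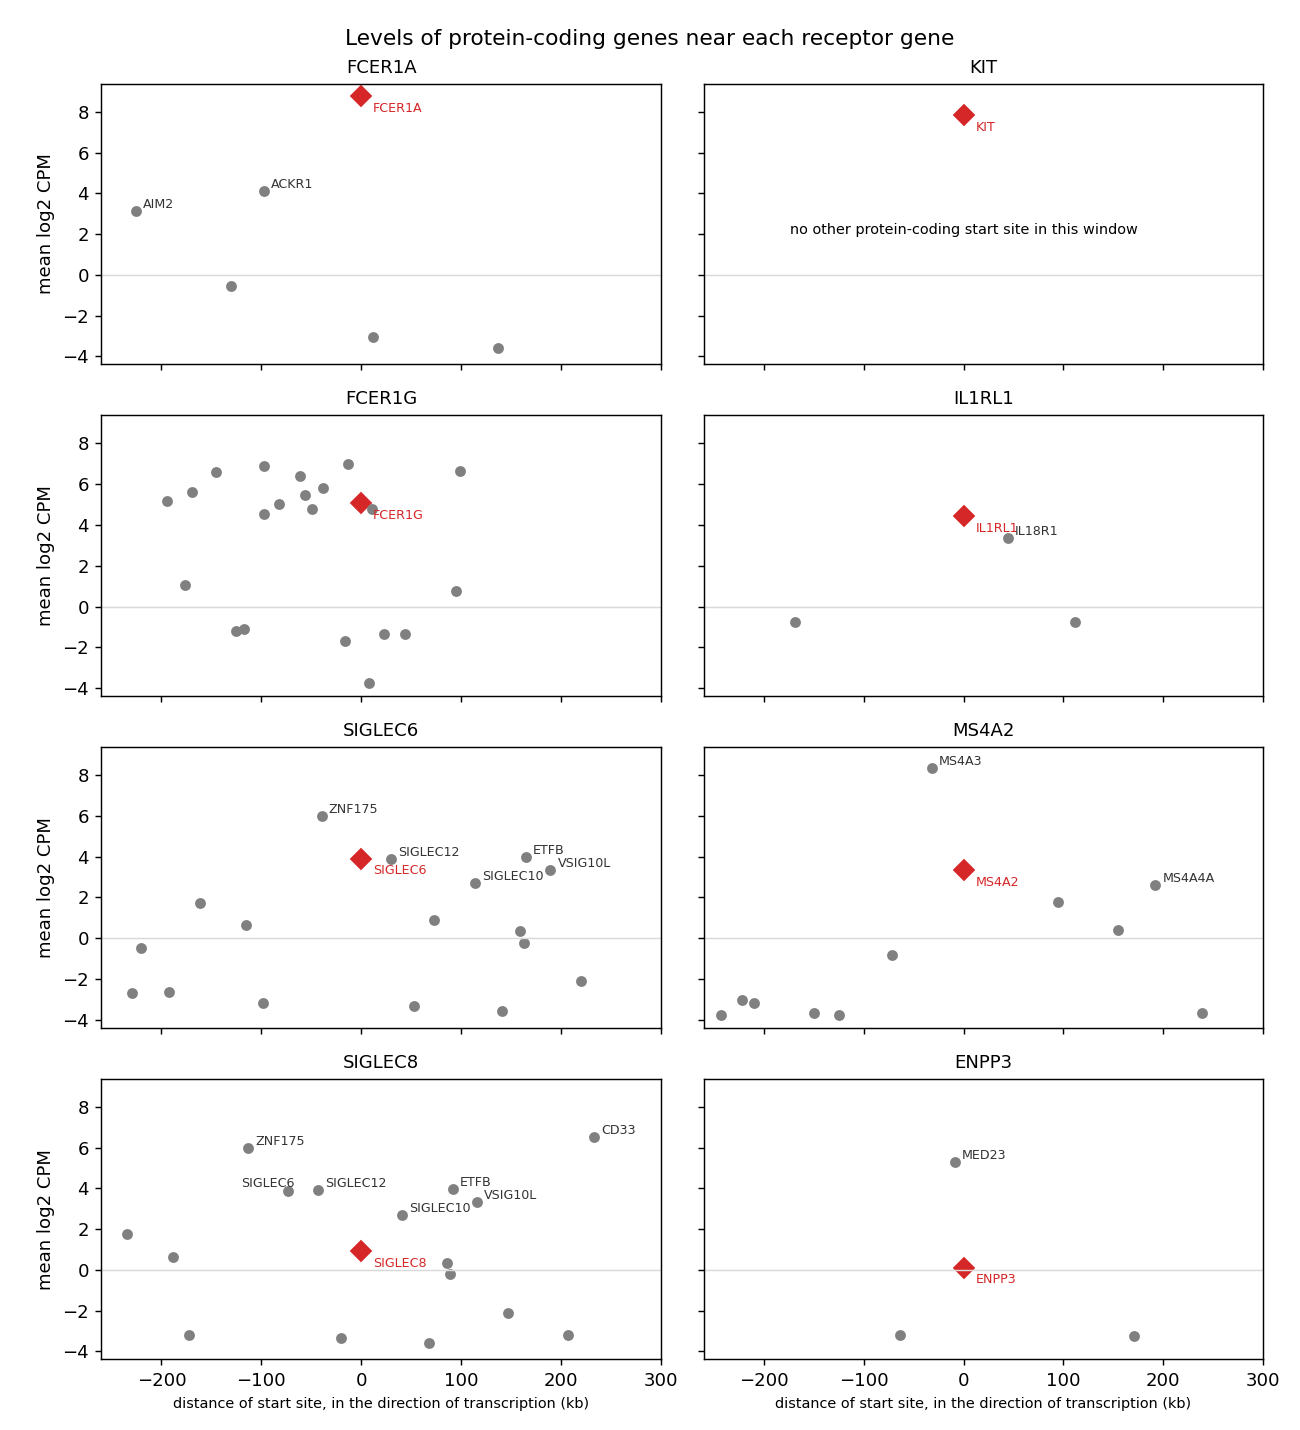
Mean log2 CPM of protein-coding genes with a row in the table (grey circles) against the distance of their start site from that of each receptor gene (red diamond), in kb along the direction of transcription. FCER1A (8.75) and IL1RL1 (4.43) stand above all measured neighbours, KIT has none in the window, and FCER1G (5.06) lies among genes of like level.

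A list of genes for signalling by KIT or the IgE receptor was measured throughout, at the RNA level. All 24 genes of that list reached 1 CPM, with a median log2 CPM of 6.79. The inositol phosphatase INPP5D (8.37), the Src family kinase LYN (8.33) and the tyrosine phosphatase PTPN11 (8.31) had the highest mean log2 CPM. Per kilobase of canonical transcript the highest were PTPN6 (134.3 CPM per kb), BTK (112.6) and GRB2 (85.3). LYN and SYK, the kinases that act first on the IgE receptor chains, stood at 54.9 and 32.6 CPM per kb, beside 56.5 for FCER1G. The scaffold LAT had the lowest mean log2 CPM of the list, at 1.53, and its relative LAT2 was at 3.33. Per kilobase of canonical transcript, PLCG1 (0.917 CPM per kb) and CBLB (1.18) stood below LAT (1.72).

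Other receptors of mast cells and basophils were more mixed. Of the 17 genes fixed for this list 14 had a row, and 8 of these reached 1 CPM, against 43.8% of all genes listed. IL3RA, CSF2RA and CRLF2, all on chromosome X, had no row, so their level is unknown. Genes with almost no counts, such as MRGPRX2, did have one. Why IL3RA, CSF2RA and CRLF2 had none was not tested. The tetraspanin CD63, which marks granule membranes, was highest at 256 CPM, followed by CSF2RB, the shared chain of the IL-3, IL-5 and GM-CSF receptors, at a mean log2 CPM of 6.68, and IL4R at 5.55. MRGPRX2, a receptor of skin mast cells, was at -3.76, the histamine receptor gene HRH4 at -3.48 and the eotaxin receptor gene CCR3 at -2.93.

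Transcription factors known from mast cell progenitors were high. All 12 genes of the list reached 1 CPM, with a median log2 CPM of 8.03. By mean log2 CPM the list was led by GATA2 (10.14), STAT5A (9.08) and RUNX1 (9.03). Per kilobase of canonical transcript it was led by GATA2 (334.0 CPM per kb), LYL1 (191.7) and GATA1 (171.3). GATA1, which serves the erythroid and megakaryocyte lineages as well, was at 7.97. MITF, a regulator of mast cells and pigment cells, was lower at 4.56, and CEBPA, a granulocyte regulator, lowest at 2.33. Most factors of this list also serve other blood lineages.

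Granule genes spread widely. Of the 9 with a row 7 reached 1 CPM. By mean log2 CPM they were led by HDC, the histamine-forming enzyme (8.69), CPA3, the mast cell carboxypeptidase (7.04), and the proteoglycan gene SRGN (6.66). Per kilobase of canonical transcript SRGN (83.3 CPM per kb) stood above CPA3 (74.8), and HDC (171.4) remained highest. The tryptase genes TPSAB1 (2.94) and TPSB2 (2.88) are near-identical, so their single values are uncertain. CTSG was at -0.92, TPSG1 at -3.18, and the chymase gene CMA1 had no row.

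The labelled cell type was checked against lineage markers. All 11 erythroid markers reached 1 CPM, with a median log2 CPM of 7.25. The highest by mean log2 CPM were TFRC (11.09), HBA1 (9.79) and HBG1 (9.72), of which the globin genes have near-identical copies. Per kilobase of canonical transcript HBA1 (1538 CPM per kb) and HBG1 (1440) stood above TFRC (434.0). Of 9 megakaryocyte markers with a row 8 reached 1 CPM, among them ITGA2B (10.54) and ITGB3 (7.12), and VWF was at -2.71. Of 7 T, B and NK cell markers with a row 4 reached 1 CPM, namely CD2 (2.95), CD79A (2.32), NCAM1 (2.26) and NKG7 (0.35). PAX5 was at -2.25 and CD3G at -3.66, and CD3D and CD3E had no row. Of all genes listed 43.8% reached 1 CPM, so the count for this list does not by itself tell the cell type. In bulk RNA, a few cells at a high level and many cells at a low level give the same mean. TMIGD2, the gene the hairpin targets, had a mean log2 CPM of 4.08 over both groups, a value that does not check the knockdown, and its ligand gene HHLA2 was at -3.66. The authors also knocked down HHLA2 in HEL cells and judged knockdown by flow cytometry, which reads protein and not RNA. How the low HHLA2 RNA relates to that protein was not tested.

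**Figure D5:**
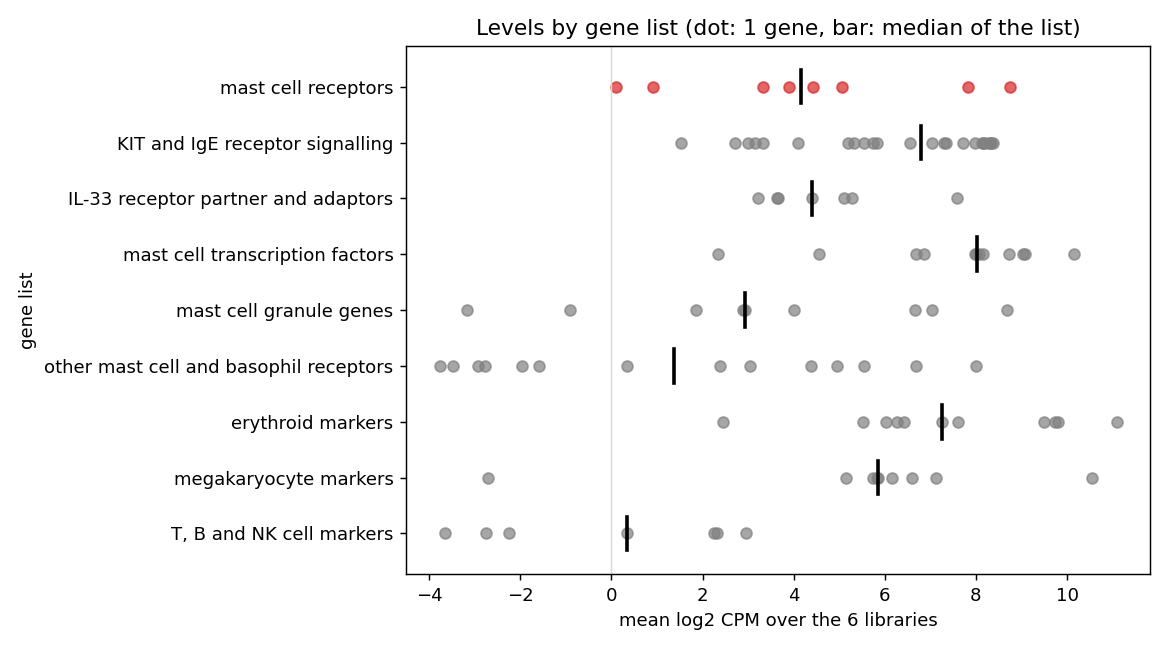
Mean log2 CPM over the 6 libraries (x axis) of every measured gene of 9 lists (dots, red for the 8 receptors), with a bar at the median of each list. The receptors range from 0.11 to 8.75 around a median of 4.16, and the transcription factors have a median of 8.03.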

How the data were processed

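RNA-seq of HEL cells with shCtrl (3 libraries) or shTMIGD2 (3 libraries) was used, grouped by title. Per the labels and the methods, reads were aligned to hg38 with STAR 2.6.1b and fragments per gene were counted with HTSeq 0.6.1 on a refSeq annotation. The authors' deposited table gives 1 average log2 CPM per gene, headed logCPM and named for no sample or group. Its column layout is that of edgeR, which the submitters' processing notes name. The authors used DESeq2 for differential expression, per the methods, on genes averaging at least 1 read in 1 of the groups compared. Whether that filter was applied to this table, and its scaling and prior count, are not given in the sources used here. Its 4 other numeric columns hold the authors' own comparison of shTMIGD2 with shCtrl (the fold change with its test statistic, raw p and adjusted p) and were not used, so no test between the groups was made. The planned edgeR test needs counts per library and was not run.

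Levels were computed as 2 to the power of the log2 CPM, which sum to 1002510 over the 31999 genes. They were divided by transcript length from GENCODE 44 on GRCh38, the same build as hg38. Of the gene names, 22987 (71.8%) matched by symbol. Promoter windows came from RefSeq (GRCh38.p14), where 8 of 8 members matched. Python 3.11.15 and pandas 2.3.3 were used. The percentile and motif steps were tested on simulated data. Depth per library is unknown from this column, so no interval is given.

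The members and gene lists were chosen with earlier results of these data known. Named genes were every member, TMIGD2 and HHLA2, the 3 genes of each list with the highest mean log2 CPM, and the known partners IL1RAP, KITLG, IL33, LYN and SYK. Further list genes, neighbours and the ratios were named after their values were seen. A few genes that these rules would name are not reported here.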

Additional observations from a re-analysis of the deposited data

How the results depend on the processing

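No paired analysis was possible because the column used is 1 mean over all 6 libraries. For the same reason no library could be left out, no replicate block fitted and neither edgeR nor DESeq2 run. All 8 receptors reached 1 CPM, 8 reached 0.5 CPM and 6 reached 2 CPM, SIGLEC8 and ENPP3 being lost. The number above the median of the table was 8. It was 3 where the median was taken over genes at a log2 level of 0 or above, 5 against only protein-coding genes, since both remove genes with few counts from the background, and 6 on levels per kilobase. Percentiles fell with both backgrounds, for FCER1A from 99.0 to 98.0 among protein-coding genes and for ENPP3 from 56.8 to 31.3. With coding length, 5 of the 8 levels per kilobase changed by more than 1.5 times, and MS4A2 passed IL1RL1 and SIGLEC6 in the order. With merged exons, an alternative chosen after seeing the data, 3 of 8 did, and the order stayed that of the canonical transcripts. Subtracting the lowest level of the table changed 0 of 8 by that much. The size of any step between neighbouring genes has no error here, and the values of ENPP3 and SIGLEC8 rest on the fewest counts.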
